A study of Mus musculus with 10 samples.

Results

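The genes described here are 51 genes of mitosis, the phase in which the duplicated chromosomes are condensed, attached to a spindle and shared between the daughter cells. They were taken by symbol from the deposited gene table of normalised counts, in which a row can carry several gene names separated by commas. All 51 symbols had a row, of 49624 rows left after rows with equal names were summed, and all 51 were among the 16056 rows that passed the filter on low values. Of these, 3 genes lay in merged rows: Top2a shared its row with Gm23451, Ncapd2 with Scarna10, and Foxm1 with Nrip2, 4933413G19Rik and Gm44596. A further 3 genes, Cdc25c, Plk1 and Spc24, had 2 rows each that were summed. The smaller row of Spc24 held 17.3 normalised counts in WT replicate 1 and 241 in WT replicate 2, whereas the sum of both rows was 1304 and 1228, so its reads were split differently between the rows in these libraries.

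The RNA came from mouse embryonic stem cells in a serum-free 2i/LIF medium with PD0325901 (a MEK inhibitor, 1 µM), CHIR99021 (a GSK3 inhibitor, 3 µM) and the cytokine LIF (1000 U/ml). The WT and KO groups were C57BL/6J cells labelled Mof fl/fl; Cre-ER TM, with the genotypes wild type and Mof-KO. Cells of that line had ethanol or 100 nM 4-hydroxytamoxifen for 3 days, and the labels do not say which group had which, nor do they name a group with the drug or active Cre but intact Mof. Mof is Kat8, a histone acetyltransferase gene. The Control group was the E14tg2a line with water for 4 days, and the ETO group the same line with etomoxir for 4 days, at a dose not given in the sources used here. Etomoxir blocks the CPT1 enzymes that bring long-chain fatty acids into mitochondria, and the labels describe it as inhibiting fatty acid oxidation. The Released group was taken from etomoxir for another 4 days. Each of the 5 groups had 2 libraries, described as biological duplicates, and no more is said of how the duplicates were made, so the p-values rest on the spread between these libraries alone, which may be technical.

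Entry into mitosis is driven by the kinase CDK1 bound to B-type cyclins, which CDC25 phosphatases switch on and the kinases PLK1 and Aurora A help to sustain. Chromosomes are compacted by condensin and topoisomerase II, and their centromeres build kinetochores that grip the spindle. As long as a kinetochore is unattached, the spindle assembly checkpoint holds CDC20, the activator of the anaphase-promoting complex (APC/C). Once the APC/C is free, cyclin B and securin are degraded, separase opens the cohesin rings, and a central spindle of kinesins and PRC1 places the cleavage furrow. Most of these transcripts peak in G2 and M phase. The MuvB core complex binds the CHR element of their promoters, either with the pocket proteins in the repressive DREAM complex or with B-MYB (Mybl2) and then FOXM1 in activating complexes, and the factor NF-Y binds CCAAT boxes nearby. In bulk samples, fewer cells in G2 and M phase and less RNA per cell cannot be told apart.

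These motifs stood at higher shares in the promoters of the listed genes than in all promoters of the same length, a comparison given without a test. RefSeq promoter windows (GRCm38.p6, the assembly of mm10), each from 250 bases before to 50 bases after a transcription start, were found for 42 of the 51 genes, in 45 windows of 300 bases. A CHR element, searched as TTTGAA or TTTAAA on both strands, was present in 36 of the 45 windows (80%) and in 27.6% of all 32851 windows of the table. A CCAAT box, searched as CCAAT on both strands, was present in 33 windows (73.3%) against 37.4% of all, and 46.7% held at least 2 of them against 11.7% of all. Both motifs together were present in 31 windows (68.9%) against 10.7% of all. An E2F-like site, searched as TTTCCCGC or TTTGGCGC, was present in 3 windows (6.67%) against 1.56%. TTTAAA reads the same on both strands and was counted once, and CCAAT boxes on opposite strands may overlap. A match is a description of these letters and not a measured binding site.

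The 200 bases before the start are printed for 4 genes, to show these motifs beside large and small falls in etomoxir. The choice was limited to genes with a single promoter window. This left out Bub3, which fell less than Anln and held both a CHR element and CCAAT boxes. Ccnb2 and Bub1 fell most, Anln and Spc25 were among those that fell least, and all 4 were chosen after their values were seen. Capitals mark CHR elements and CCAAT boxes (ATTGG where the box is on the other strand), and each sequence is written 5′ to 3′ towards the gene, on the minus strand of the chromosome.
Ccnb2, chr9:70421555-70421754: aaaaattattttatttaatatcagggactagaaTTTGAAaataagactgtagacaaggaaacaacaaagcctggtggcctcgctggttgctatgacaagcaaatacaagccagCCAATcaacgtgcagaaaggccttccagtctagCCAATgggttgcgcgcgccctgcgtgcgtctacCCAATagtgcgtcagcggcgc
Bub1, chr2:127831860-127832059: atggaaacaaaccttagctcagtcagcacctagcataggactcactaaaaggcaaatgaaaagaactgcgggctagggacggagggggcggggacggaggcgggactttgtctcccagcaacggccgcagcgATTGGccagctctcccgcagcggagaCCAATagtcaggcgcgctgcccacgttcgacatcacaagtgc
Anln, chr9:22389207-22389406: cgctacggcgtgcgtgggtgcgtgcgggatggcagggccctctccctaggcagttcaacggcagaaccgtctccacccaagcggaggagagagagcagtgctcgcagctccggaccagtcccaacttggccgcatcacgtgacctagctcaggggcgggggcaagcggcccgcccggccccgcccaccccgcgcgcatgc
Spc25, chr2:69206214-69206413: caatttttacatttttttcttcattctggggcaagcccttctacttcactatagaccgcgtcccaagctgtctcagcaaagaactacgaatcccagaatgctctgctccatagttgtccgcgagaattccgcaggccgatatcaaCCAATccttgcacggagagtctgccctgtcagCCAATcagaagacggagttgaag
Ccnb2 held CCAAT boxes starting 87, 54 and 21 bases before the start and a CHR element at 167 bases. Bub1 held boxes at 68 and 42 bases and no CHR element in its window. Spc25, with the smallest fall of all, held boxes at 55 and 23 bases, and Anln held neither motif in the stretch shown. Spc25 and Anln, and Ccnb2 a second time, held CHR elements within the 50 bases after the start, which are not printed. The changes in etomoxir overlapped between genes with and without these motifs. The log2 change ran from -1.83 to -0.30 (median -1.05) over the 33 genes with a CHR element and from -1.66 to -0.70 (median -1.12) over the 9 without. The median was -1.18 over the 19 genes with at least 2 CCAAT boxes and -1.03 over the 23 with fewer.

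Total normalised count ranged from 10562067 to 13326172 across the 10 libraries, and the estimated read number behind them from 9783520 to 16778607. A normalised count is the authors' read count divided by 1 factor per library. Kat8 was at 433 and 357 normalised counts in WT and at 222 and 205 in KO, a change of -0.88 on the log2 scale (limma adjusted p = 3.64e-05), so the row was reduced and not at 0 in KO. The labels do not say which stretch of the gene is floxed. The pluripotency list was expressed in every group, with 15 of 15 genes above 0 in every library. Its summed FPKM (reads scaled to transcript length and library size, a level per length) was 3618 and 3723 in the Control libraries, 2334 and 2337 with etomoxir and 3807 and 3748 after release. Of the 15, 13 were called lower in ETO and 2 higher (Dppa3 by 1.09 and Klf5 by 0.26 on the log2 scale), where 34% of all tested rows were called lower and 26.8% higher. The 10 trophectoderm markers summed to 39.4 and 41.5 FPKM in Control, to 650 and 744 with etomoxir and to 116 and 124 after release. Most of the ETO sum was Krt18, at a mean of 541 FPKM. Of 8 tested trophectoderm markers, 7 were called higher in ETO, among them the factors Eomes, from a mean of 1.77 FPKM in Control to 11.7, and Gata3, from 1.05 to 4.93. The defining factor Cdx2 was the 1 called lower, from 1.58 to 0.218 FPKM. The 12 primitive endoderm markers summed to 532 and 508 FPKM in Control and to 871 and 884 in ETO, most of it Sparc at a mean of 836. Their sums were 1355 and 1306 in WT and 1744 and 1669 in KO. Of 9 tested, 6 were called higher in ETO, among them the factors Gata4 (2.56 on the log2 scale) and Gata6 (3.23). Lama1 was the 1 called lower (-0.58). The mesoderm and neural lists summed to under 20 FPKM in every library, and the feeder and fibroblast list to 361 to 646 in the E14tg2a libraries, nearly all of it Fn1 and Vim. Mitochondrial rows took 3.34% to 3.39% of the signal in Control and 0.588% to 0.761% in ETO. These values move with the etomoxir groups, and their part in the results below was not tested.

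In untreated E14tg2a cells the genes spanned a wide range of levels. Among genes with 1 row, mean FPKM in Control was highest for Cdk1, at 249, followed by Mybl2 at 242, the APC/C's ubiquitin-conjugating enzyme Ube2c at 216 and the checkpoint protein Mad2l1 at 212. The 2 summed rows of Plk1 gave 297. The lowest levels were 12.5 FPKM for Cdc25b, 17.2 for Cdc25c (2 rows summed), 19.2 for separase (Espl1), 21.9 for Kif4 and 22.7 for Cenpe. No gene of the list was near 0 in any library. The plot of FPKM by functional group shows each gene's level in the 3 E14tg2a groups.

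**Figure D1:**
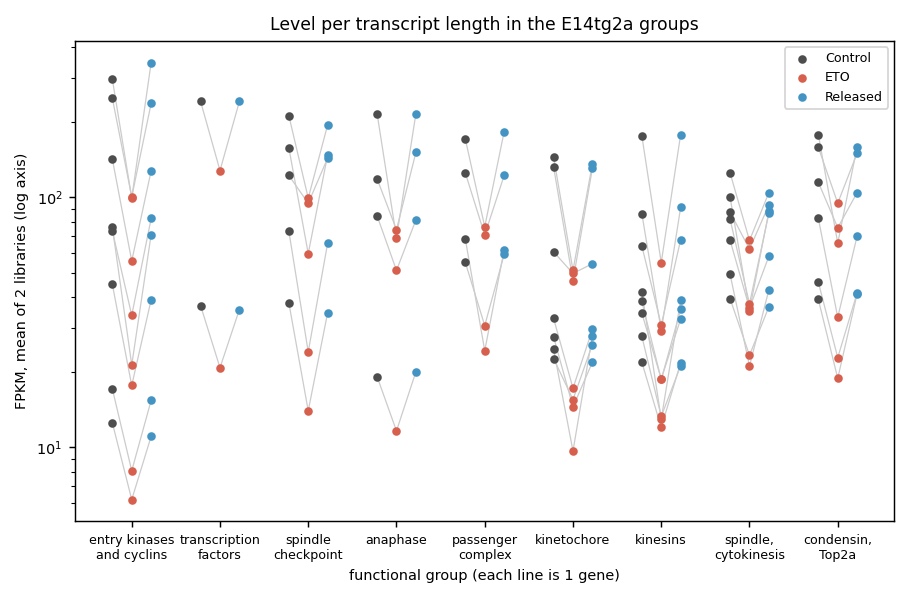
Mean FPKM (log axis) of each gene in Control (grey), ETO (red) and Released (blue), 2 libraries each, by functional group, with 1 line per gene. Every line dips in ETO, and the levels in Control run from 12.5 (Cdc25b) to 297 (Plk1, 2 rows summed).

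All 51 genes were lower in the cells with etomoxir. Against Control, 51 of 51 were called lower and 0 higher (limma, Benjamini-Hochberg adjusted p under 0.05 over all 16056 rows tested), where 34% of all tested rows were called lower and 26.8% higher. The fitted log2 changes ran from -1.83 in Ccnb2 (adjusted p = 7.77e-12) to -0.30 in Spc25 (limma adjusted p = 0.0136), with a median of -1.09. The median of all tested rows was -0.09. Under the other scalings between libraries that median lay between -0.01 and 0.09, and the median of the 51 genes stayed 1.00 below it in each. Of the 51 genes, 30 were lowered at least 2-fold, against 9.11% of all tested rows. Both ETO libraries lay below both Control libraries for 51 of 51 genes, and for 45.8% of all tested rows. Together the genes held 0.943% of the signal in each Control library and 0.504% and 0.507% in the ETO libraries. The calls held under all 22 alternatives for 49 genes, and the exceptions were Cenpe, lost with FPKM values (limma adjusted p = 0.0615), and Spc25, described with its group.

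After etomoxir was removed, 50 of the genes rose again. Against ETO, 50 of 51 genes were called higher in Released and 0 lower, where 33.1% of all tested rows were called higher and 24.6% lower. The median log2 change was 1.10, against 0.10 over all tested rows, and 27 genes were at least 2-fold higher, against 9.17% of all tested rows. Spc25 missed the call, at 0.17 (limma adjusted p = 0.147). The genes held 0.942% and 0.943% of the signal in the Released libraries. The ETO libraries are shared by both comparisons, so a low value in ETO enters both.

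**Figure D2:**
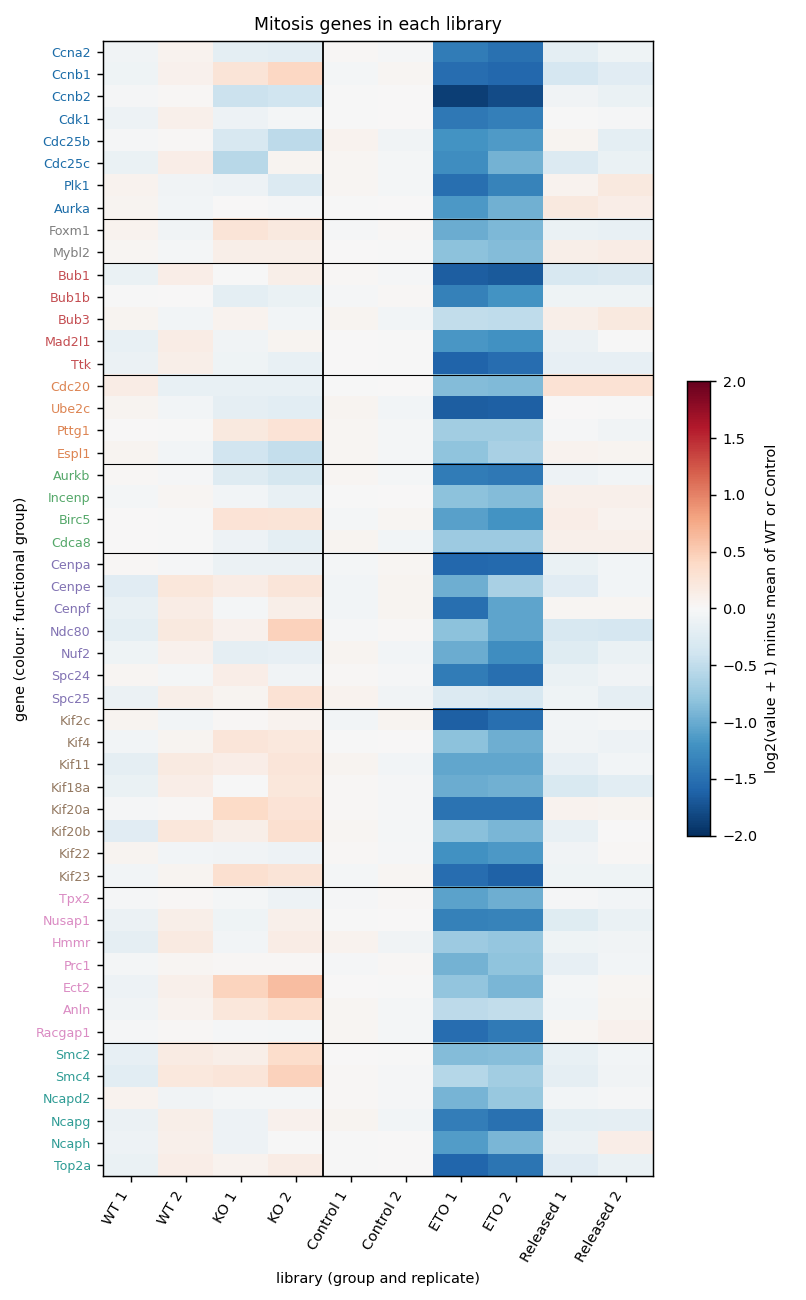
Level of each of the 51 genes (rows, names coloured by functional group) in each of the 10 libraries (columns), as log2(normalised count + 1) minus the mean of WT for the first 4 columns and of Control for the other 6. The ETO columns are blue in every row, from -1.83 for Ccnb2 to -0.30 for Spc25 as group means, while the Released columns are pale and the KO columns mixed.

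The 8 genes of mitotic entry had the lowest median of the functional groups, -1.41 in ETO. Ccnb2, a B-type cyclin, was at 1504 and 1515 normalised counts in the Control libraries, 409 and 438 with etomoxir and 1432 and 1377 after release. Its ETO libraries were thus at 28.1% of Control by group means, the lowest share of all 51 genes, with a log2 change of -1.83 ± 0.07 (SE). Ccnb1, the main mitotic cyclin, was at 1204 and 1277 in the Control libraries, 430 and 415 with etomoxir and 983 and 1060 after release. Both Released libraries of Ccnb1 stayed below both Control libraries. Ccna2, the cyclin of S and G2 phase, was at 4045 and 3958 in the Control libraries, 1514 and 1424 with etomoxir and 3486 and 3756 after release. Cdk1, the kinase that these cyclins bind, went from 2927 and 2935 to 1086 and 1139 and back to 2906 and 2887, with the Released libraries just under those of Control. Plk1, the Polo kinase, changed by -1.42 in ETO and Cdc25b and Cdc25c, the phosphatases that activate CDK1, by -1.17 and -1.09. Aurka, the Aurora kinase of the centrosome, had the smallest change of the group, from 1690 and 1702 to 767 and 868, or -1.05 ± 0.07. In Released it was at 1950 and 1869, above both Control libraries, a difference that was not called (log2 0.17, limma adjusted p = 0.139).

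Both transcription factors of the mitotic programme had smaller fitted changes than each of the 8 genes of mitotic entry. Foxm1, whose protein drives transcription of many G2 and M genes, was at 1418 and 1475 in the Control libraries, 725 and 779 with etomoxir and 1313 and 1302 after release (-0.94 ± 0.07 in ETO). Its row also holds reads of 3 other genes. Mybl2, which encodes B-MYB, was at 4948 and 4864 in the Control libraries, 2774 and 2679 with etomoxir and 5307 and 5449 after release (-0.85 ± 0.05 in ETO). For both genes the ETO libraries were clear of the other E14tg2a libraries.

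Among the 5 genes of the spindle assembly checkpoint the falls were uneven. Bub1, a kinetochore kinase of the checkpoint, was at 2676 and 2596 in Control and at 842 and 821 in ETO, a log2 change of -1.66 ± 0.08, the largest fall of the list after Ccnb2. In Released it was at 2104 and 2157, still under both Control libraries. Ttk, the kinase MPS1 that starts the checkpoint signal, changed by -1.56, Bub1b (BUBR1) by -1.27 and Mad2l1 (MAD2) by -1.19. The latter 2 proteins hold CDC20 in the inhibitory complex. Bub3, the partner of both BUB1 and BUBR1, stood apart with 1923 and 1800 in the Control libraries, 1323 and 1312 with etomoxir and 2024 and 2136 after release. Its change in ETO was -0.50 ± 0.07, the second smallest of the 51.

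The 4 genes of anaphase onset had a median of -0.80 in ETO. Ube2c, which supplies ubiquitin to the APC/C, fell most, from 2565 and 2369 to 785 and 795, or -1.64 ± 0.07, and was at 2470 and 2461 in Released. Cdc20, the APC/C activator that the checkpoint restrains, was at 1744 and 1756 in the Control libraries, 964 and 949 with etomoxir and 2142 and 2130 after release. It was the gene furthest above Control after release. Pttg1, or securin, the inhibitor of separase, had the smallest change, from 652 and 614 to 390 and 390, or -0.70 ± 0.09, and was at 625 and 602 in Released. Espl1, or separase itself, was at 1901 and 1810 in the Control libraries, 1062 and 1187 with etomoxir and 1952 and 1922 after release. The fitted change of the enzyme was -0.72, beside -0.70 for its inhibitor.

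The chromosomal passenger complex, which corrects wrong attachments and later guides cytokinesis, had a median of -0.99. Aurkb, its Aurora kinase, was at 1105 and 1057 in the Control libraries, 408 and 400 with etomoxir and 1012 and 1043 after release, with a change of -1.42 ± 0.07 in ETO. Birc5 (survivin) changed by -1.14 and Incenp, the scaffold, by -0.84. Cdca8 (borealin) had the smallest change, from 1932 and 1801 to 1121 and 1131, or -0.73 ± 0.06, and was at 1993 and 2012 in Released. The kinase and the borealin subunit of 1 complex were thus at 37.4% and 60.3% of Control in ETO.

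In the centromere and kinetochore group the median was -1.12, with the widest range of any functional group. Cenpa, the histone H3 variant that marks centromeres, was at 1737 and 1819 in the Control libraries, 598 and 604 with etomoxir and 1615 and 1718 after release (-1.56 ± 0.06 in ETO). Cenpe, a kinesin of the kinetochore, and Cenpf, a large kinetochore protein, changed by -0.81 and -1.28. The ETO replicates of Cenpe lay at 849 and 1058 and those of Cenpf at 587 and 797, a wide spread for this list. The 4 subunits of the NDC80 complex, which binds the ends of microtubules, did not move alike. Spc24 changed by -1.46, Nuf2 by -1.12 and Ndc80 by -0.93 in ETO. Spc25 was at 958 and 864 in the Control libraries, 748 and 725 with etomoxir and 855 and 804 after release. Its ETO level was 80.9% of Control, the highest share of the 51 genes. The 95% intervals of Spc24 (-1.63 to -1.29) and Spc25 (-0.51 to -0.10) did not overlap, although both proteins form the arm of the complex that faces the chromosome. The difference between the 2 genes was not tested. The fall of Spc25 was not called under 8 of 22 alternatives, among them all 4 other scalings and the fits without Control replicate 1 and without ETO replicate 2 (adjusted p up to 0.318).

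The kinesins had a median of -1.11. Kif2c (MCAK), which takes microtubules apart at the centromere, was at 1317 and 1421 in the Control libraries, 441 and 478 with etomoxir and 1324 and 1326 after release (-1.57 ± 0.07 in ETO). Kif23 and Kif20a, motors of the central spindle, changed by -1.57 and -1.48. Kif22, the chromokinesin Kid, changed by -1.18, Kif11 (Eg5), which pushes the spindle poles apart, by -1.03, Kif18a, which dampens chromosome movements, by -0.97, and the chromokinesin Kif4 by -0.89. Kif20b had the smallest change, from 2781 and 2652 to 1519 and 1443, or -0.87 ± 0.12, and was at 2440 and 2716 in Released. The larger standard error of Kif20b comes with its WT libraries, at 2353 and 3202, since all groups share 1 spread per gene in the fit.

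Spindle organisers and cytokinesis genes had a median of -0.87. Racgap1, which joins Kif23 in the centralspindlin complex, was at 2138 and 2037 in the Control libraries, 727 and 781 with etomoxir and 2141 and 2213 after release (-1.47 ± 0.06 in ETO). Nusap1 and Tpx2, which organise spindle microtubules, changed by -1.34 and -1.02. Prc1, the bundler of the central spindle, Ect2, the exchange factor that activates RhoA at the furrow, and Hmmr changed by -0.87, -0.85 and -0.75. Anln (anillin), the scaffold of the contractile ring, changed least, from 4507 and 4276 to 3050 and 3110, or -0.51 ± 0.06, and was at 4249 and 4554 in Released. Both subunits of centralspindlin were thus at a lower share of Control in ETO, 33.6% (Kif23) and 36.1% (Racgap1), than Ect2, at 55.5%, which they recruit.

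Condensin and topoisomerase genes had a median of -0.94. Top2a, the enzyme that untangles sister chromatids, was at 9446 and 9545 in the Control libraries, 3152 and 3454 with etomoxir and 8129 and 8624 after release (-1.52 ± 0.07 in ETO). Within condensin I, the regulatory subunits changed by -1.43 (Ncapg), -1.02 (Ncaph) and -0.85 (Ncapd2). The core ATPases, which condensin II shares, changed by -0.86 (Smc2) and -0.63 (Smc4). Smc4 was at 4336 and 4179 in the Control libraries, 2864 and 2630 with etomoxir and 3763 and 4073 after release.

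**Figure D3:**
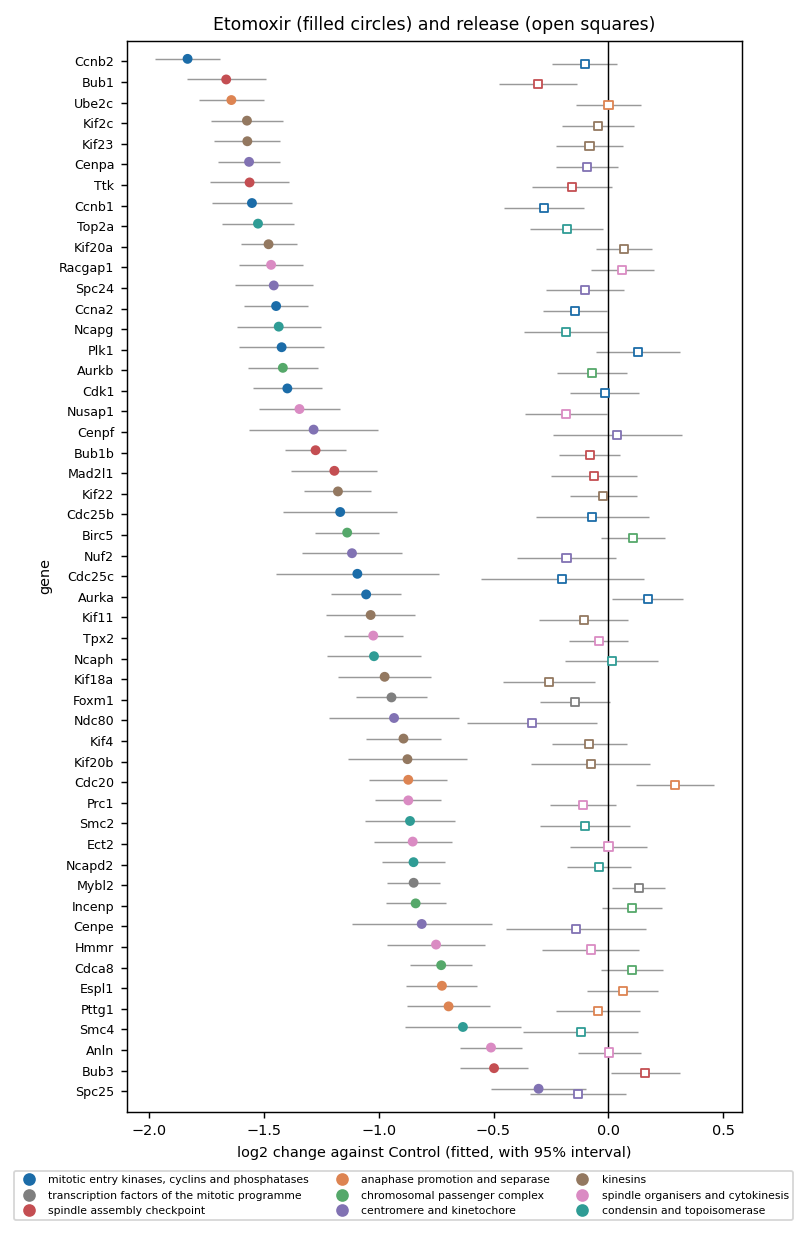
Fitted log2 change against Control for each of the 51 genes in ETO (filled circles) and Released (open squares), with 95% intervals, coloured by functional group and ordered by the ETO change. All circles lie left of 0, from -1.83 (Ccnb2) to -0.30 (Spc25), and the squares lie between -0.33 (Ndc80) and 0.29 (Cdc20).

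The comparison of Released with Control asks how close the released cells came to untreated ones. Against Control, 1 gene was called higher in Released and 2 lower, against 7.03% and 5.51% of all tested rows. Most differences were small but leaned downward, with 35 fitted changes below 0 and 16 above. Both Released libraries lay below both Control libraries for 28 of 51 genes, and for 30.2% of all tested rows. They lay above both Control libraries for 11 genes, and for 31.5% of all tested rows. Cdc20 was higher, at 122% of Control (log2 0.29 ± 0.08, limma adjusted p = 0.0278). Bub1 and Ccnb1 were lower, at 80.8% and 82.4% of Control (-0.31 and -0.28, limma adjusted p = 0.0211 and 0.0365). The median over the 51 genes was -0.08, against 0.01 over all tested rows. The 95% interval of the difference lay within 1.5-fold in either direction for 50 of 51 genes, and for 55.9% of all tested rows. The exception was Ndc80, at 812 and 832 in Control and 655 and 650 in Released. None of the 3 calls held under all alternatives, and all 3 were lost without Control replicate 1, without Control replicate 2, without Released replicate 1 and without Released replicate 2. Without WT replicate 1, WT replicate 2, ETO replicate 1 or ETO replicate 2, the median over the 51 genes stayed at -0.08. A fit of the E14tg2a libraries alone called 4 higher and 8 lower, beside 2028 and 1685 of 15329 tested rows.

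With the deposited factors, the Mof knockout group showed no common movement of these genes. Against WT, 10 of 51 were called higher in KO (19.6%) and 6 lower (11.8%), where 24.6% of all tested rows were called higher and 13.3% lower. With these factors the members' shares are near the background and below it in both directions. The median log2 change was 0.01, against 0.08 over all tested rows, none of the 51 changed 2-fold, and 47 of 51 had a 95% interval within 1.5-fold. The 4 with a wider interval were Ect2, Smc4, Cdc25b and Cdc25c. The 51 genes held 0.968% and 1.03% of the signal in WT and 0.915% and 0.939% in KO. The shares called depended on the scaling. With TMM factors 15 of 51 were called lower and 5 higher, beside 2940 and 2868 of 16078 tested rows. With the total signal as the factor 19 were lower and 2 higher, beside 3655 and 2170 of 16106.

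Of the 10 genes called higher in KO, 3 were kinesins and 2 were spindle and cytokinesis genes. Ect2 changed most, from 1889 and 2165 normalised counts in WT to 2767 and 3109 in KO, or 0.54 ± 0.08 (limma adjusted p = 0.000107). Kif20a was at 3494 and 3625 in WT and 4623 and 4300 in KO (0.33 ± 0.06, limma adjusted p = 0.000444). For both genes the groups were well apart. Anln was at 4623 and 5109 in WT and at 5715 and 6101 in KO (0.28), and Kif23 at 1668 and 1804 in WT and 2169 and 2070 in KO (0.29). Ccnb1, at 1168 and 1314 in WT and 1479 and 1645 in KO, changed by 0.33, and Smc4, Birc5, Foxm1, Pttg1 and Kif4 by 0.36, 0.26, 0.23, 0.23 and 0.23. The WT libraries of Smc4, at 3707 and 4922, lay far apart, and WT replicate 2 was close to KO replicate 1 at 5060.

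Of the 6 genes called lower in KO, 3 belonged to mitotic entry, 2 to anaphase onset and 1 to the passenger complex. Ccnb2 was at 2008 and 2062 in WT and 1507 and 1547 in KO (-0.41 ± 0.07, limma adjusted p = 0.000218). Ccnb2 and Ccnb1, paralogous cyclins, were thus called in opposite directions, although the call of Ccnb1 was lost under 4 of 22 alternatives. Espl1 was at 1853 and 1729 in WT and 1374 and 1284 in KO (-0.43 ± 0.07, limma adjusted p = 0.000313). Its inhibitor Pttg1 was at 354 and 353 in WT and 404 and 425 in KO. That call (limma adjusted p = 0.0461) was lost under 18 of 22 alternatives, among them all 4 other scalings, the replicate block and each left-out library (adjusted p up to 0.605), so an opposite movement of the pair was not stable. Aurkb was at 1429 and 1391 in WT and 1180 and 1101 in KO (-0.31), and Cdc25b at 422 and 435 in WT and 343 and 297 in KO (-0.42). Ccna2 and Ube2c changed by -0.21 and -0.20. With the deposited factors, none of the 5 checkpoint genes and none of the 7 centromere and kinetochore genes was called. Under the 4 other scalings no gene of these groups was called higher. Bub1b and Cenpa were called lower with all 4, Ttk with TMM factors and the total signal, and Nuf2 with the total signal.

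**Figure D4:**
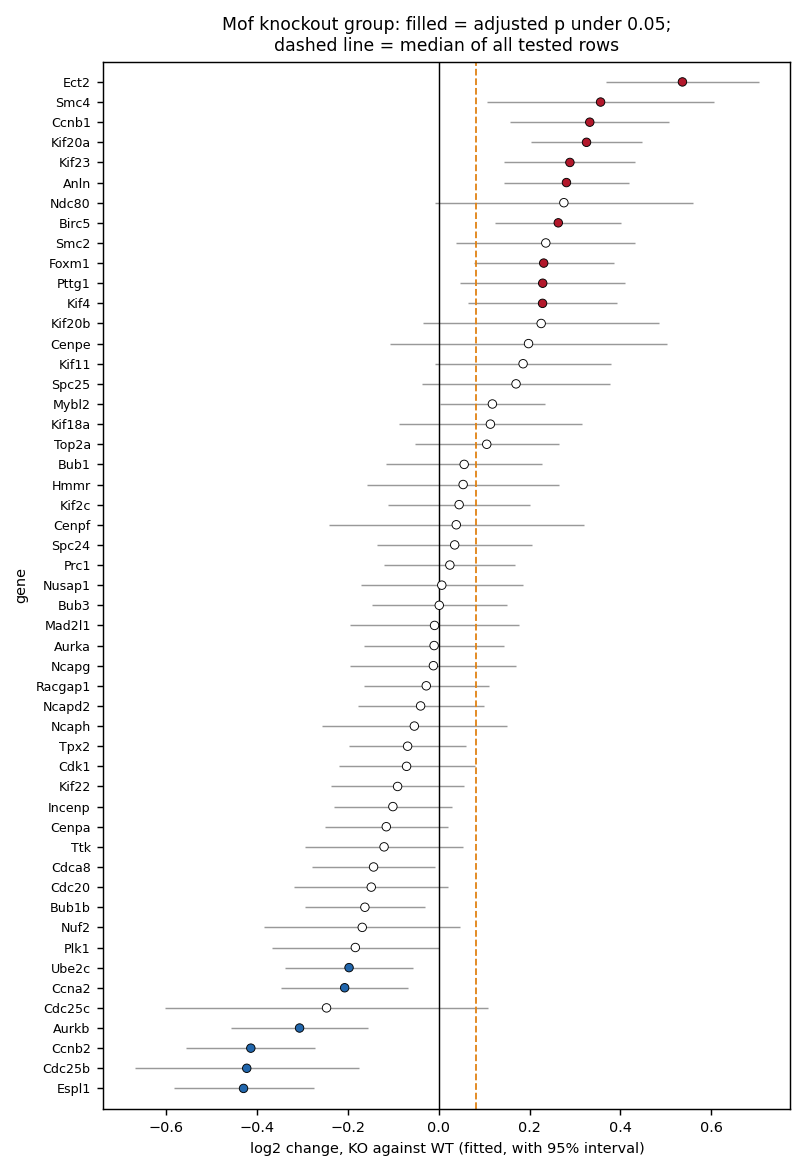
Fitted log2 change in KO against WT for each of the 51 genes with its 95% interval. Filled circles are called at an adjusted p under 0.05 (red higher, blue lower) and the dashed line is the median of all tested rows, 0.08. The genes spread on both sides of 0, from -0.43 (Espl1) to 0.54 (Ect2).

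The split of these calls depended on the scaling between libraries. With the deposited factors 10 genes were higher and 6 lower (62.5% of calls higher). The split was 5 and 15 with TMM factors (25%), 6 and 12 with median-of-ratios factors (33.3%), and 2 and 19 with the total signal as the factor (9.52%), with or without mitochondrial rows and the 20 highest rows. Over all tested rows, 64.8% of calls were higher with the deposited factors, 49.4% with TMM and 52.5% with median-of-ratios factors. With the total signal, in either form, the share over all tested rows was 37.3%. The members' share was thus near that of all rows only with the deposited factors, and lower under the others. These scalings moved the median of all tested rows between 0.08 and -0.08, and the median of the 51 genes stayed 0.08 below it in each. The calls of Ect2, Kif20a, Ccnb2 and Espl1 held under all 22 alternatives. Single libraries also moved the median of the 51 genes with the deposited factors. It was 0.07 without WT replicate 2 and -0.02 without KO replicate 2, beside 0.08 over all tested rows in each. The 51 genes were at a median of 0.11 higher on the log2 scale in WT replicate 2 than in WT replicate 1, and their replicates differed by a median absolute log2 value of 0.144 in WT, 0.0943 in KO and 0.053 in Control.

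**Figure D5:**
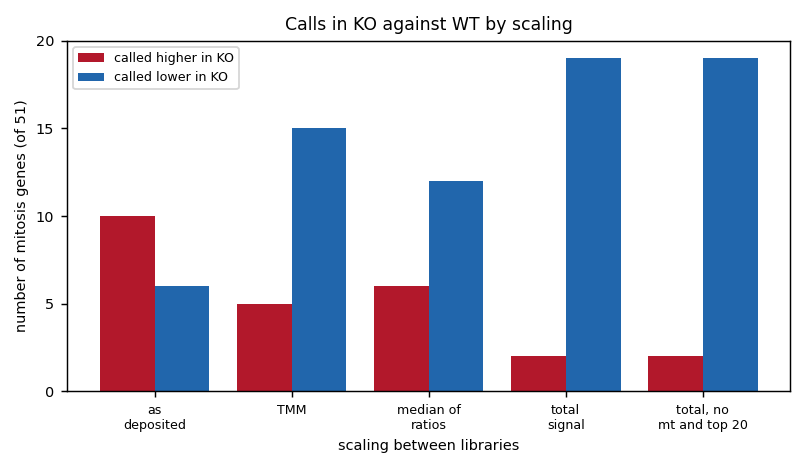
Number of the 51 genes called higher (red) and lower (blue) in KO against WT under 5 scalings between libraries. The deposited factors give 10 and 6, the other scalings 2 to 6 and 12 to 19.

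The KO and etomoxir changes were then set against each other in 1 contrast, the KO change minus the ETO change, which uses 4 different groups. All 51 genes were called higher in it and 0 lower, where 32.3% of all tested rows were called higher and 22.2% lower. The median difference was 1.11 on the log2 scale, against 0.13 over all tested rows. The largest differences were 1.88 ± 0.12 in Ccnb1, 1.86 ± 0.10 in Kif23 and 1.80 ± 0.08 in Kif20a, genes that rose in KO and fell in ETO. The smallest was 0.29 in Espl1 (limma adjusted p = 0.0239), which fell in both. The difference of Espl1 turned to -0.06 with the total signal as the factor and to -0.01 when mitochondrial rows and the 20 highest rows were also left out of that total, and neither was called (limma adjusted p = 0.654 and 0.951). The 2 experiments used different lines, so the line and the kind of perturbation cannot be told apart in this contrast.

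Other genes of mitosis were mostly lower in etomoxir. They come from 10 lists of its complexes and from the list of DREAM and MMB subunits described below. Of 155 tested genes, 117 were called lower in ETO (75.5%) and 11 higher (7.10%), with a median of -0.59, where 34% of all tested rows were called lower and 26.8% higher, with a median of -0.09. The inner kinetochore and CENP-A loading list had 17 lower and 1 higher of 19, with Cenph at -1.62 and Cenpm at -1.15. The outer kinetochore list had 13 lower and 2 higher of 15, with Ska1 at -1.74 and Kntc1 at -1.26 called lower. The genes called higher there were Zwint at 0.79 and Dsn1 at 0.67. Other spindle and cytokinesis genes were 16 lower and 1 higher of 21, with the abscission protein Cep55 at -1.32, and other mitotic regulators 17 lower and 1 higher of 20, with Cdca3 at -1.75 and Cdca2 at -1.32. Condensin II and Ki-67 were 4 lower of 4 (Mki67 -1.33, Ncapg2 -0.93), and other mitotic kinesins 4 lower of 6 (Kif15 -1.25, Kif14 -1.05).

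Among the other 4 of the 10 lists of complexes, the APC/C list had 11 lower (68.8%) and 2 higher (12.5%) of 16 with a median of -0.44, against 34% and 26.8% of all tested rows. Its inhibitor Fbxo5 (EMI1) changed by -1.72 and the subunit Anapc5 by -0.74, while Cdc16 and Anapc16 were higher by 0.32 and 0.37. Of the gamma-tubulin and augmin genes, 9 of 17 were lower (52.9%, against 34% of all tested rows) and 1 higher (median -0.29, Haus1 -1.51, Tubg1 -0.72). Of the centriole and centrosome genes, 12 of 13 were lower and 0 higher (median -0.56, Cdk5rap2 -0.71, Cep192 -0.62). The cohesin list had 10 lower and 1 higher of 15 (median -0.44). Its acetyltransferase Esco2, used in S phase, changed by -1.97, while the loader Nipbl, at -0.07, and the ring subunit Stag2, at 0.01, were not called.

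Many cohesin genes were higher in the Mof knockout group. Of 15 genes, 11 were called higher in KO (73.3%) and 0 lower, with a median of 0.30, where 24.6% of all tested rows were called higher and 13.3% lower, with a median of 0.08. The list was led by Pds5a, a regulator of ring release, from 2853 and 3236 in WT to 4778 and 5000 in KO (0.69, limma adjusted p = 3.13e-06). Wapl, the release factor, changed by 0.45 and Sgo1 (shugoshin) by 0.41. The count of higher genes was 7 with TMM or median-of-ratios factors, beside 2868 of 16078 and 3066 of 16079 tested rows. It was 6 with the total signal as the factor, beside 2170 of 16106. The median of the list stayed above 0 in each of these and without WT replicate 1, at 0.13 or more. The gamma-tubulin and augmin list had 2 higher (11.8%) and 7 lower (41.2%) of 17 in KO (median -0.19), beside the same shares of all tested rows. Under the other scalings it had 1 or 2 higher and 9 lower (median -0.26 to -0.35), and with FPKM values 2 higher and 3 lower. Over all tested rows these scalings called 2170 to 3066 higher and 2779 to 3674 lower, and FPKM values 1996 and 963 of 16056.

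The regulators that stand above these genes are set beside the same shares of all tested rows, 34% lower and 26.8% higher in ETO. Of the DREAM and MMB subunits, 6 of 11 were lower in ETO (54.5%) and 2 higher (18.2%, median -0.25). Rbbp4 changed by -0.67, Tfdp2 by -0.91 and the DREAM factor E2f4 by -0.69, while Lin54, the MuvB subunit that reads the CHR element, rose by 0.49 and Lin9 was not called (-0.23). Of 17 CDK inhibitors, pocket proteins and growth arrest genes, 11 were higher (64.7%) and 5 lower (29.4%, median 0.70). The changes of the 17 genes ran from -0.71 to 3.25. Rb1 was higher by 2.05, Rbl2 (p130, a pocket protein of DREAM) by 0.56, Cdkn1a (p21) by 0.70 and Cdkn1b (p27) by 0.23. These genes, all with a rise, were picked after their values were seen. None of the 5 called lower is named, so the genes picked do not stand for the list. The smallest adjusted p of the list belonged to Btg2 (1.69) and Gadd45a (2.92). Of 43 genes of DNA replication and the G1/S transition, 42 were lower (97.7%) and 0 higher (median -0.91, Uhrf1 -1.52, Rrm2 -1.27), so the S phase genes fell in the same libraries as the mitosis genes.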

How the data were processed

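Libraries were made with the Illumina TruSeq protocol and sequenced single-end, per the labels' protocols. The submitters' processing notes name TopHat2 2.1.1, an aligner, SAMtools 1.5, deepTools and the build mm10. The program that made the gene tables and its use of strand are not given in the sources used here, so overlapping and antisense genes are uncertain. The deposited signal of the first table is, per the file headers, a count per gene and library. Its low values (under 20 reads) lie on steps of 1 read after division by a library's factor. Within 0.1 read, whole reads made up 84.4% to 85.6% of the values of a library and 88.9% to 90.3% of the low ones. The values are thus not whole counts, and no count model was fitted. A second deposited table holds FPKM, per the file headers, with the same factor.

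Rows with equal names were summed (50273 rows, of which 1314 merge names). The filter kept rows that reached 10 in 2 or more libraries. A row of mitochondrial genes and 1 more mitochondrial row, listed at 0 in Released replicate 1, were left out after this was seen. log2(value + 1) was fitted with limma 3.58.1 (R 4.3.3), 1 mean per group over all 10 libraries, with an intensity trend and robust moderation. The pseudocount makes changes of low genes smaller than their ratios. A gene was called at a two-sided Benjamini-Hochberg adjusted p under 0.05 over all 16056 rows. Changes are given on the log2 scale with standard errors. The procedure was tested on simulated data. The alternatives were other scalings (TMM, a trimmed mean of log ratios, median of ratios, and total signal), pseudocounts of 0.5 and 10, no filter or one at 50, no trend, a fit per experiment, FPKM + 0.1, a replicate block and each library left out. Tables and figures were made in Python 3.11.15 (pandas 2.3.3, numpy 2.4.6, matplotlib 3.10.9).

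The genes, functional groups and lists were chosen with earlier results of these data known. Values in full were given, per functional group, for the called genes with the largest and smallest change in etomoxir. They were also given for the 4 called genes with the smallest adjusted p in each direction in KO, the called genes of Released against Control and the 3 genes whose KO and ETO changes differed most. Up to 2 genes per other list were named by their adjusted p in etomoxir. Other genes named from those lists were picked after their values were seen.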

Additional observations from a re-analysis of the deposited data

How the results depend on the processing

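The fall of the 51 genes in ETO, their rise in Released against ETO and the difference between KO and ETO changes kept their direction under every alternative run, except for the difference of Espl1, which was -0.0601 with the total signal as the factor and -0.0085 when that total left out mitochondrial rows and the 20 highest rows. Of single genes under single alternatives, 9 calls were lost in ETO against Control, 1 in Released against ETO and 26 in the difference, and in KO against WT 72 were lost and 66 gained. The cause of these losses was not tested. With TMM, median-of-ratios, total signal and reduced total signal factors, the median log2 change was -1.01, -0.99, -0.90 and -0.95 in ETO, 1.02, 1.00, 0.95 and 0.99 in Released against ETO, and 0.94, 0.93, 0.76 and 0.81 for the difference. Released against ETO gave 1.06 with a pseudocount of 10 and 1.01 with FPKM values. For KO against WT these 4 scalings gave a median of -0.0869, -0.0715, -0.159 and -0.158, with 5, 6, 2 and 2 genes higher and 15, 12, 19 and 19 lower, and FPKM values gave 3 higher and a median of 0.0579. The scalings differ by construction in the level set as unchanged. For Released against Control, the counts of higher and lower genes were 2 and 1 with the total signal (median -0.0311). All tested rows there had 1429 and 612 of 16106. The counts were 1 and 1 with the reduced total (1323 and 695 of 16045 rows) or with no filter (1050 and 727 of 24891). They were 0 and 0 with no trend (762 and 409 of 16056 rows) or with FPKM values (218 and 130 of 16056). A fit per experiment gave 4 and 8, beside 2028 and 1685 of 15329 rows. That fit gives no value for the difference between KO and ETO changes. With 1 library left out, KO against WT gave 6 to 17 higher, 4 to 7 lower and a median of -0.0291 to 0.0708. In the same way ETO against Control gave a median of -1.12 to -1.05, and Released against ETO a median of 1.06 to 1.15. Released against Control gave a median of -0.08 to -0.05, and the difference a median of 1.06 to 1.22. For calls under those fits, the lone library of a group is assumed to vary like those of the other groups. With a replicate block the counts of higher and lower genes were 10 and 7 in KO, 0 and 51 in ETO, 50 and 0 in Released against ETO, 1 and 3 in Released against Control and 51 and 0 for the difference. Over all 16056 tested rows the counts were 4056 and 2184, 4327 and 5525, 5371 and 3982, 1200 and 968, and 5278 and 3610, in the same order. The labels do not say whether same-numbered libraries were handled together. The correlations of their deviations were 0.08 (WT and KO), -0.01 (Control and ETO), -0.02 (ETO and Released) and 0.04 (Control and Released). Each rests on 1 difference between replicates per group, so they cannot decide it. With 2 libraries a group, the spread between replicates is estimated from few values. Every one of the 51 genes lay above 150 normalised counts in every library, and the effect of depth on the calls was not tested.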

Other observations

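The wild type libraries of the floxed line and the water controls of E14tg2a come from different experiments, and no test was made between them. By group means the median of the 51 genes was 100% of Control in WT, with genes on both sides of it. Several kinetochore and checkpoint genes were lower in WT, while others of these groups were higher. Ndc80 stood at 47.4% of Control, Ttk at 57.3%, Nuf2 at 57.9% and securin (Pttg1) at 55.8%, and the mitotic kinase Plk1 at 63.7%. Other genes were higher in WT, with Ncapd2 at 168%, Nusap1 at 158%, and Cenpa and Hmmr at 147% each. The checkpoint genes Bub1 and Bub1b were at 116% and 119%. The kinetochore proteins Ndc80 and Nuf2, which form 1 dimer, were thus both low in the floxed line, while their partner Spc24, at 1304 and 1228 in WT and 1224 and 1195 in Control, was above Control in both libraries. The line, the treatment with ethanol or hydroxytamoxifen and the experiment cannot be told apart in these values.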
